A study of Mus musculus with 2 samples.

Results

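The fatty acid-binding protein genes Fabp1 to Fabp7 were examined in mouse embryonic stem cells (mESCs) cultured with or without folate. The 7 genes were taken by their symbols, and 6 of them were among the 28839 genes of the deposited expression table. Fabp2 was not analysed here. The family was chosen by the FPKM of Fabp3 in the 2 libraries, which was already known, so its values are given as a description. RNA was sequenced from mESCs of the line Sv129 grown with serum and leukemia inhibitory factor. Normal mESCs were divided at random between a medium with folate at 4 mg/L (FA4) and the medium without it (FA0, 0 mg/L). Each condition has a single library. The sources used here do not give the length of the culture.

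Fatty acid-binding proteins are small proteins of the cytosol that enclose a fatty acid or a related lipid in a barrel-shaped fold and carry it through the cell. Their genes are known for sharply different tissues: Fabp1 for liver and gut, Fabp2 for gut, Fabp3 for heart and skeletal muscle, Fabp4 for adipocytes and macrophages, Fabp5 for skin, Fabp6 for the ileum, where its product binds bile acids, and Fabp7 for radial glia of the developing brain. Some of them also bring lipids to nuclear receptors, as FABP4 and FABP5 do for peroxisome proliferator-activated receptors (PPARs).

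The members are related but distinct in sequence. Their coding sequences in GENCODE M21 run from 384 to 408 bases with the stop codon, and each of the 7 lies in 4 exons. Over the 21 pairs, aligned end to end, from 47.7% to 66.2% of the positions were identical. Fabp3 was closest to Fabp7 at 66.2% and to Fabp4 at 65.0%, and its identity to Fabp5 was 56.5%. The longest identical stretch in any pair was 20 bases, between Fabp3 and Fabp7.

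Near-identical copies exist outside the 7 genes, and they bear on which gene a read is assigned to. Fabp3-ps1, a processed pseudogene of Fabp3 (chr10:86731987-86732388, minus strand, mm10), matched the Fabp3 coding sequence at 399 of 402 positions. Counted from 1 at the first base of the start codon, with the base of Fabp3 first, the differences are A40T, C297T and G334A. A40T lies in exon 1 of Fabp3 (chr4:130308595-130315463, plus strand) at position 130308817, and C297T and G334A lie in exon 3 at 130314004 and 130314041. The 31 bases around each site are shown because only reads that cover such a site tell the 2 coding sequences apart, and the differing base is in capitals.
Fabp3 around position 40: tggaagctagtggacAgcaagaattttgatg
Fabp3-ps1 around position 40: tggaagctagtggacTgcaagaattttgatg
Fabp3 around position 297: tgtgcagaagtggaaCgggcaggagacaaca
Fabp3-ps1 around position 297: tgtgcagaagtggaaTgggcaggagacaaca
Fabp3 around position 334: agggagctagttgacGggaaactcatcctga
Fabp3-ps1 around position 334: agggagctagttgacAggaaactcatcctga

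The longest stretch shared by Fabp3 and Fabp3-ps1 without a difference was 256 bases. The pseudogene holds no counterpart of the 421 bases of the Fabp3 transcript outside the coding sequence, so the shared part is 48.8% of that transcript. For Fabp5, 5 processed pseudogenes had at least 85% identity over at least 100 bases, and 4 of them were in the table. The closest, Gm6166 (chr9:57483963-57484371, plus strand), matched the Fabp5 coding sequence at 98.3% of 409 aligned positions. No other transcript of the annotation reached this similarity to Fabp1, Fabp2, Fabp4, Fabp6 or Fabp7 at these limits.

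RefSeq gives start regions, 250 bases before to 50 after its start of the gene, for 5 of the members. For Fabp3 and Fabp1 this start lies downstream of the first base of the gene used for the reads (chr4:130308595 and chr6:71199827). Part of each region shown before the RefSeq start is therefore inside the gene as annotated there. The region of Fabp3 (chr4:130308488-130308787, GRCm38.p6) and that of Fabp1 (chr6:71199629-71199928) are shown because Fabp3 held the most CpG, the dinucleotide that carries DNA methylation, and Fabp1 was among those with the fewest. Each CpG is in capitals.
Fabp3: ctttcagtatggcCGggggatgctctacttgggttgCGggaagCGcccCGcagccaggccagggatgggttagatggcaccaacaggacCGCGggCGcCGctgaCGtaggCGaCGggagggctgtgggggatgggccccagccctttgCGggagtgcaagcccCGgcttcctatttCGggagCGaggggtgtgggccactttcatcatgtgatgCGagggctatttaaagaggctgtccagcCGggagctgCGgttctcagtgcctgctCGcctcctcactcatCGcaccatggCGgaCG
Fabp1: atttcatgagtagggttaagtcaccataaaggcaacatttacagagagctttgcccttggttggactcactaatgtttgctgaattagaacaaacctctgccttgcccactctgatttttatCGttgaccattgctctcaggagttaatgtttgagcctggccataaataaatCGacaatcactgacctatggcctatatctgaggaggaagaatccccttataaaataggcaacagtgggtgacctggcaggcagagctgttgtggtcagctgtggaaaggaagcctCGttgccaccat

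The region of Fabp3 held 22 CpG and had a GC content of 65%, and 23.1% of the 32851 start regions in the table held as many CpG or more. Those of Fabp1, Fabp2 and Fabp6 held 3 CpG each and that of Fabp7 held 6. The median was 21 CpG over 9736 expressed genes matched by symbol and 7 over 5902 genes that were not expressed. The sequence TATTTAA was present in the region of Fabp3 and in no other of the 5. It lies 29 bases before the RefSeq start, inside the gene as used for the reads. TATTTAA was found in 4.51% of all regions. TATAAA, found in 13.6% of all regions, was present in the regions of Fabp1 and Fabp6. GGGCGG, found in 35.7%, was present in none of the 5. Each motif was searched on both strands. These matches are descriptions of letters in a short window and say nothing of binding.

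Each level is given as FPKM (fragments per kilobase of exon, scaled to the size of the library, as deposited) and as the whole number of reads recovered from it. The total that scaled the FPKM was 18807032 reads in FA4 against 17704763 in FA0. Low values, up to 20 reads, came out within 0.05 of a whole number for 97.9% of genes in FA4 against 98.1% in FA0. The change of a gene is the difference of log2(FPKM + 1), FA0 minus FA4, and a gene is called expressed where the FPKM of FA4 or FA0 is at least 1. With 1 library per condition there is no replicate check and no test. The 95% limits given are exact counting intervals (Clopper-Pearson for ratios, Poisson for levels) and leave out the spread between cultures. In RNA from whole cultures, fewer cells that express a gene and less of its RNA per cell cannot be told apart.

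Of the 6 members measured, 2 were expressed, Fabp3 and Fabp5. At the limit of a 2-fold size (a change of at least 1), 1 member, Fabp3, was higher in FA0 and none was lower. Among all 14345 expressed genes, 2.99% passed this limit as higher and 1.32% as lower. The family therefore had a single member with a large difference, and nothing is read from the count, since Fabp3 was known beforehand. The median change was 1.13 over the 2 expressed members, which is the midpoint of a large positive and a small negative value, and 0.05 over all expressed genes.

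**Figure D1:**
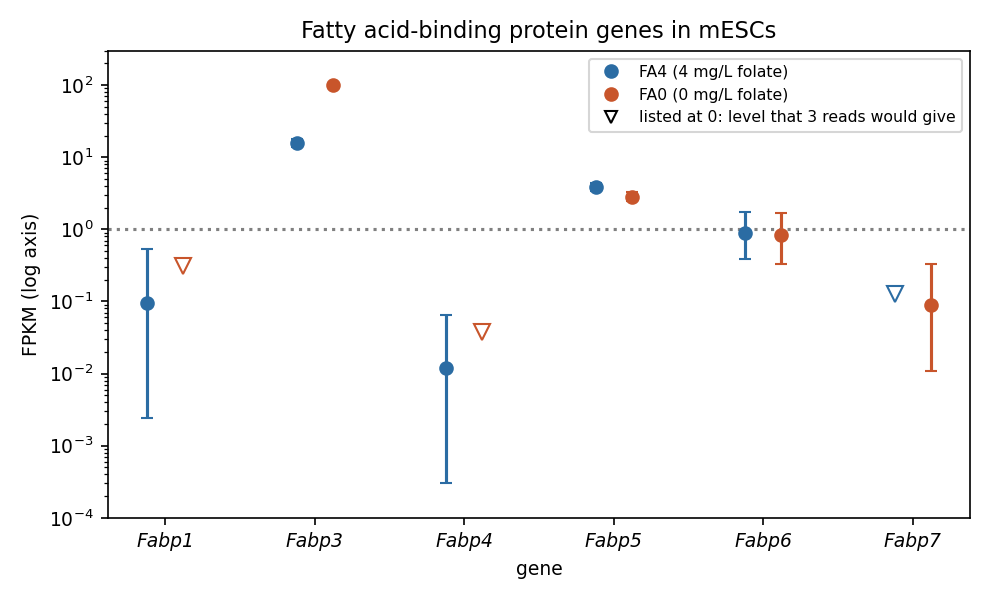
FPKM of the 6 measured Fabp genes (log axis) in the FA4 library (blue) and the FA0 library (orange). Bars are 95% Poisson counting intervals, open triangles mark the level that 3 reads would give for a gene listed at 0, and the dotted line is an FPKM of 1. Fabp3 stood at 15.6 in FA4 against 99.8 in FA0, whereas Fabp1, Fabp4, Fabp6 and Fabp7 stayed under 1 in both libraries.

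Fabp3, which encodes the heart-type carrier of long-chain fatty acids, had 15.6 FPKM in FA4 (95% counting limits 13.7 to 17.7) and 99.8 in FA0 (94.7 to 105). These values rested on 241 reads in FA4 against 1454 in FA0. The ratio was 6.41 (95% counting limits 5.59 to 7.38), and the change was 2.60. By FPKM, Fabp3 was in place 3927 of all genes in FA4 and in place 446 in FA0.

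Among the 1267 genes that reached an FPKM of 50 in one library or both, 13 had a change of at least 1 and 6 of at most -1. Fabp3 had the largest positive change of these genes and of all 14345 expressed genes when a pseudocount of 1 was used. This rank is a description of the values by which the gene came to attention.

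**Figure D2:**
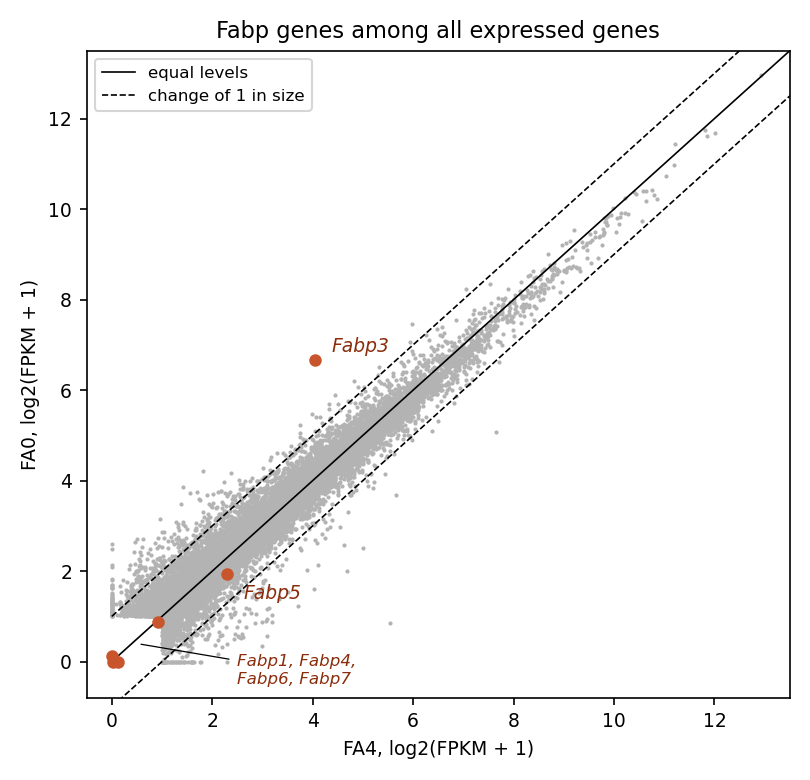
Level in FA0 against level in FA4, both as log2(FPKM + 1), for the 14345 expressed genes (grey) and the 6 measured Fabp genes (orange). The solid line marks equal levels and the dashed lines a change of 1 in size. Fabp3 lies apart from the cloud with a change of 2.60, and Fabp5 lies within the dashed lines at -0.35.

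The reads assigned to the pseudogene were few beside those of Fabp3. Fabp3-ps1 had 5 reads in FA4 against 11 in FA0, with a ratio of 2.34 (95% counting limits 0.749 to 8.58). Summed over the gene and its copy, the reads were 246 in FA4 against 1465 in FA0, a ratio of 6.33 (95% counting limits 5.52 to 7.27). The difference of Fabp3 was nearly as large when the pseudogene was counted with it.

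Fabp5, the epidermal-type protein that delivers ligands to PPAR delta, was the other expressed member. It had 3.91 FPKM in FA4 (95% counting limits 3.45 to 4.41) and 2.85 in FA0 (2.45 to 3.30). The reads were 262 in FA4 against 180 in FA0, and the level in FA0 was 1.37-fold lower (95% counting limits 1.13 to 1.67). Fabp5 and Fabp3 thus differed in opposite directions, although the difference of Fabp5 was small. By the same interval, 25.9% of the expressed genes were lower in FA0 and 34.4% were higher, so an interval of counting error that leaves out equal levels is common in these libraries.

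The pseudogenes weigh more for Fabp5 than for Fabp3. Gm6166 alone had 133 reads in FA4 against 116 in FA0, 1.08-fold lower in FA0 (95% counting limits 0.835 to 1.40). With the reads of the 4 measured pseudogenes added, the sum was 404 in FA4 against 304 in FA0, 1.25-fold lower (95% counting limits 1.08 to 1.46). The direction stayed as it was and the difference became smaller. The sources used here do not say how reads that match several places were treated, so reads of Fabp5 and of its copies cannot be told apart with certainty.

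The gap between Fabp3 and Fabp5 depended on the length by which reads were divided. The deposited FPKM of Fabp5 was reproduced with a merged exon length of 3567 bases, which includes a retained-intron transcript, while its coding transcript has 987 bases. The merged length of Fabp3 equals its transcript of 823 bases. Per length of the coding transcript, a measure chosen after seeing the data, Fabp5 would have up to 14.1 FPKM in FA4 against 10.3 in FA0. All reads assigned to Fabp5 were divided by this length, also any from outside the coding transcript, so both values are upper bounds. Fabp3 at 15.6 and Fabp5 at up to 14.1 could then be close in FA4, where the deposited levels were 15.6 and 3.91. Fabp3 had the higher value in both libraries by either length. In FA4, however, the upper bound of 14.1 for Fabp5 lies within the counting limits of Fabp3 (13.7 to 17.7). Their order there is therefore not resolved by the coding length. Fabp3 held 47.0% of the 513 reads of the 6 members in FA4 and 88.5% of 1643 in FA0.

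The other measured members were at the limit of detection. Fabp6, the ileal bile acid-binding protein, had 0.888 FPKM in FA4 (95% counting limits 0.383 to 1.75) and 0.825 in FA0 (0.332 to 1.70). It rested on 8 reads in FA4 against 7 in FA0, and the ratio of 0.929 had a counting interval of 0.287 to 2.93, so a difference of about 2-fold either way was not detectable at this depth. Its deposited FPKM was above those of Fabp1, Fabp4 and Fabp7. Its counting limits overlap those of Fabp1, which reach 0.536 in FA4 and 0.377 in FA0, so the order of Fabp6 and Fabp1 is not resolved.

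Fabp7, the brain-type protein, was listed at 0 in FA4 and had 2 reads in FA0, an FPKM of 0.0904. No read among the total of FA4 allows a level of up to 0.128 FPKM, counting 3 reads as the limit. Fabp1, the liver-type protein, had 1 read in FA4, an FPKM of 0.0962, and 0 in FA0, which allows up to 0.306. Fabp4, the adipocyte-type protein, had 1 read in FA4, an FPKM of 0.0118, and 0 in FA0, which allows up to 0.0377. These values use merged exon lengths, 4489 bases for Fabp4 and 1250 for Fabp7, while their coding transcripts have 896 and 804. Per length of the coding transcript, the 1 read of Fabp4 in FA4 would give 0.0593. The levels allowed for Fabp4 and Fabp7 would likewise be higher by that length. No fold is given for these 3 genes, since both libraries were at or under 3 reads, and no order among them can be read.

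The tissue markers for which the family is known were checked beside these levels. Of 7 cardiac and skeletal muscle genes, 2 were expressed, the sarcomere gene Actn2 and the atrial light chain gene Myl7. The FPKM summed over the 7 was 13.0 in FA4 against 8.52 in FA0, with none at 0, and Myl7 had 9.19 in FA4 against 5.55 in FA0. Most of the difference of the sum came from Myl7. The 7 genes had no common direction: Myl7, Actn2 and Myh6 had lower levels in FA0, and the other 4 (Tnnt2, Nkx2-5, Myh7 and Nppa), each under an FPKM of 1, had higher ones. Of these 4, Tnnt2, a troponin gene, had 0.137 FPKM in FA4 against 0.255 in FA0, on 20 and 35 reads, and Nppa had 5 reads in each library. Of 5 radial glia genes, 3 were expressed and the sum was 4.09 in FA4 against 4.61 in FA0.

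Of 5 liver and visceral endoderm genes, none was expressed, the sum was 0.567 in FA4 against 0.490 in FA0, and Alb and Ttr were listed at 0 in FA4. Of 5 measured genes of adipocytes and macrophages, 1 was expressed, the lysosomal gene Cd68, which many cells express, and the hormone gene Adipoq was at 0.0385 in FA4 against 0.0409 in FA0. The sum was 32.9 in FA4 against 25.4 in FA0, and Cfd and Adgre1 were at 0 in FA0. Of 5 measured genes of the gut, 1 was expressed, Vil1, the sum was 1.83 in FA4 against 1.57 in FA0, and Alpi and Slc10a2 were at 0 in FA4. The 3 measured keratinocyte genes summed to 0.264 in FA4 against 0.159 in FA0, with Krt5 at 0 in FA4.

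Markers of other cells a culture of mESCs could hold were also read. All 6 mESC genes were high, with a sum of 2508 in FA4 against 1845 in FA0, and their changes ran from -0.78 for Zfp42 to -0.20. Of 5 primitive endoderm genes, 2 were expressed and the sum was 5.53 in FA4 against 2.81 in FA0, with Gata6 at a change of -1.01. Most of the difference of the sum came from Gata6, with 2.58 in FA4 against 0.778 in FA0. Gata4, Pdgfra and Sox17 were also lower in FA0, and Foxa2 was higher, on 9 reads in FA4 against 17 in FA0. Of 5 trophoblast genes, 3 were expressed and the sum was 24.1 in FA4 against 24.5 in FA0. Most of this sum was Tfap2c (16.3 in FA4 against 15.6 in FA0) and Krt8 (5.97 against 7.30). Elf5 had 1 read in FA4 against 2 in FA0, and Hand1 had 20 and 15. Of 5 fibroblast genes, 1 was expressed, Thy1, the sum was 4.46 in FA4 against 4.94 in FA0, and Postn and Lum were at 0 in FA4. The part of these cells in the levels of the Fabp genes was not tested.

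At the locus of Fabp3, the genes on either side did not share its difference. With the gene body within 200 kb of Fabp3, 5 other genes were expressed, and their changes ran from -0.39 to -0.06. Serinc2, a serine incorporator gene that lies upstream, had 8.85 FPKM in FA4 against 6.75 in FA0. Snrnp40, a component of the spliceosome, had 40.0 in FA4 against 33.8 in FA0. Zcchc17 on the opposite strand overlaps the last 81 bases of Fabp3 and had 9.85 in FA4 against 7.30 in FA0, 1.35-fold lower.

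A second gene on the opposite strand, Gm10570, overlaps the first 80 bases of Fabp3 in GENCODE M21, which lie before its RefSeq start. Gm10570 had 8 reads in FA4 against 0 in FA0. With 3 reads taken as the upper limit for FA0, its level there would be at least 2.51-fold lower, a bound that leaves out the counting error of the 8 reads. The sources used here do not say whether the counting used strand, so reads in these overlaps cannot be assigned to a strand with certainty.

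**Figure D3:**
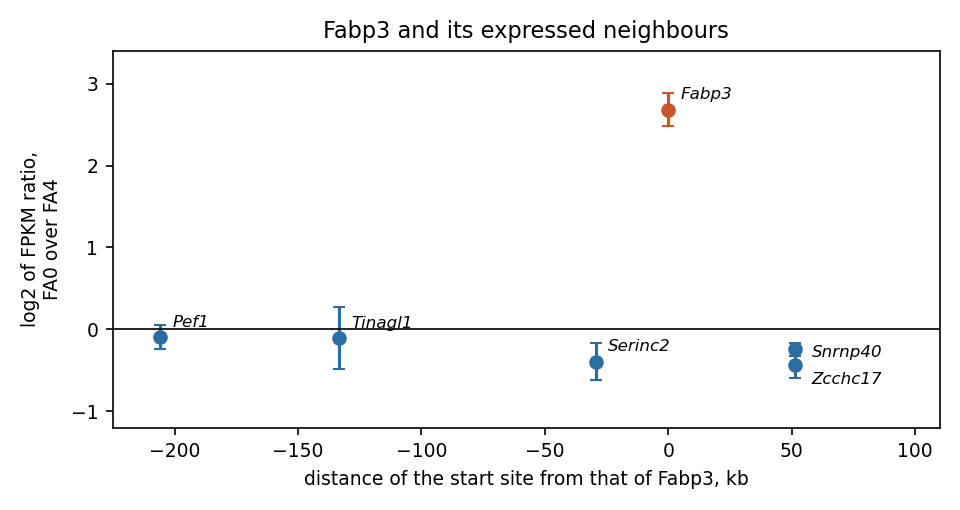
log2 ratio of FPKM, FA0 divided by FA4, for Fabp3 (orange) and the 5 expressed genes within 200 kb of it (blue), against the distance of their start sites in kb, with 95% counting limits. Fabp3 stands at 2.68 and its neighbours have values below 0.

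The other measured members had neighbours within the 2-fold limit, with 1 exception. Around Fabp1, the changes of 7 expressed genes ran from -0.44 to 0.82, the highest being that of Smyd1, a muscle methyltransferase gene. Around Fabp6 they ran from -0.63 to 0.15 over 5 genes. Fabp4 and Fabp5 lie in a common stretch of chromosome 3, where the exception, the pseudogene Gm37308 with 0 reads in FA4 against 2 in FA0, had a change of 1.09. Leaving it out, the highest change around Fabp4 was 0.86, of the pseudogene Gm38364 with 2 and 6 reads. No expressed gene lay within 200 kb of Fabp7.

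Over 2 libraries, likeness to Fabp3 can only mean a similar pair of levels. By the distance of log2(FPKM + 1) in FA4 and FA0, the nearest named genes were Sfrp1, Agrn, Dhx9, Cdo1 and Peg10, at distances from 0.993 to 1.12. Sfrp1, a secreted inhibitor of Wnt signalling, had 19.0 FPKM in FA4 against 51.0 in FA0. Agrn, the proteoglycan agrin, had 21.6 in FA4 against 50.4 in FA0. All 5 had a smaller ratio than Fabp3, from 2.11 to 2.68.

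Close relatives of the family bind retinoids, and Crabp1 was the 1 gene among them past the 2-fold limit. Of 7 genes for other intracellular lipid-binding proteins, 4 were measured and 3 expressed. By the change, 1 was past the limit as lower and none as higher, beside 1.32% and 2.99% of all expressed genes. Their median change was -0.66, beside 0.05 over all expressed genes. Crabp1, a cytosolic carrier of retinoic acid, had 17.2 FPKM in FA4 against 6.06 in FA0, on 260 and 86 reads, 2.85-fold lower (95% counting limits 2.22 to 3.68). It had been close to Fabp3 in FA4 and was far below it in FA0.

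Crabp2, which hands retinoic acid to its nuclear receptor, had 1.73 FPKM in FA4 against 0.726 in FA0, a change of -0.66. Rbp7 had 1.78 in FA4 against 3.23 in FA0, on 24 and 41 reads, and Rbp2 had 1 read in FA4 against 3 in FA0. Fabp9, Fabp12 and Pmp2 were not analysed here. The Fabp5-like pseudogene Fabp5l2 had 1 read in FA4 against 0 in FA0.

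Carriers of acyl-CoA, the activated form of a fatty acid, were mostly near equal levels. All 7 genes of this list were expressed, none passed the 2-fold limit, and the median change was 0.05. Over all expressed genes only 2.99% passed as higher and 1.32% as lower, so nothing is read from this count. Dbi, the acyl-CoA-binding protein, had the highest level among them, with 66.5 FPKM in FA4 against 50.7 in FA0, 1.31-fold lower (95% counting limits 1.22 to 1.41). In FA4 it was above Fabp3, and in FA0 Fabp3 was above it. Acbd4 had 7.53 in FA4 against 4.83 in FA0, Acbd3 had 5.84 and 7.10, and Acbd5, Acbd6, Acbd7 and Scp2 had changes from -0.04 to 0.14.

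Genes of fatty acid uptake did not pass the limit either. Of 10 genes, 9 were measured and 5 expressed, with a median change of 0.02. Few of all expressed genes passed it (2.99% higher, 1.32% lower), so nothing is read from this count either. Slc27a3, of the fatty acid transport protein family, had 435 reads in FA4 against 723 in FA0, 1.77-fold higher (95% counting limits 1.57 to 1.99). Slc27a4 of the same family had 7.94 FPKM in FA4 against 10.4 in FA0, Slc27a1, Slc27a2 and Got2 had changes from -0.12 to 0.02, and Slc27a5 had 0.414 FPKM in FA4 against 0.927 in FA0. The scavenger receptor gene Cd36 had 0 reads in FA4 against 2 in FA0. Mfsd2a had 9 reads in FA4 against 2 in FA0, Slc27a6 had 2 and 0, and Cav1 was not analysed here.

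Of 11 nuclear receptor genes whose products receive ligands from these carriers or pair with such receptors, 6 were expressed. None had a change of at least 1 in size, beside 2.99% higher and 1.32% lower over all expressed genes, and the median change was 0.21. Ppard, which encodes PPAR delta, had 6.44 FPKM in FA4 against 10.8 in FA0, 1.67-fold higher (95% counting limits 1.54 to 1.82). Rarg, a retinoic acid receptor, had 44.1 in FA4 against 27.1 in FA0, 1.63-fold lower (95% counting limits 1.54 to 1.72). Hnf4a had 0.771 in FA4 against 1.56 in FA0, a ratio of 2.02 (95% counting limits 1.50 to 2.74) but a change of 0.53. Rara, Rxra and Rxrb had changes of 0.31, -0.10 and 0.11. Ppara, the receptor of liver, had 5 reads in FA4 against 8 in FA0, and Pparg, that of fat, had 0 and 2. Rarb had 21 reads in FA4 against 3 in FA0, Rxrg had 9 and 1, and Nr1h4 had 12 and 24.

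Genes known as targets of PPARs had no common direction. Of 20 genes, 14 were expressed, and 1 was at least 2-fold lower and none higher. Over all expressed genes, 1.32% were lower and 2.99% higher at this limit. Of the 14, 9 had a change above 0 and 5 below it. Their median change was 0.13, beside 0.05 over all expressed genes. The lower gene was Fgf21, a hormone of fasting metabolism, with 3.86 FPKM in FA4 against 0.713 in FA0, on 69 and 12 reads, 5.41-fold lower (95% counting limits of the ratio of FA0 over FA4, 0.0911 to 0.344). On the other side, Cpt1a, which admits fatty acids to mitochondria, was 1.75-fold higher (95% counting limits 1.66 to 1.84), with 15.9 in FA4 against 27.9 in FA0. The lipid droplet gene Plin2 had 15.4 in FA4 against 25.8 in FA0, and the acyl-CoA dehydrogenase gene Acadl had 10.4 and 18.4. Lpl, lipoprotein lipase, had a change of 0.57 and Pdk4, a pyruvate dehydrogenase kinase, of 0.45.

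None of the 6 ileal bile acid genes, listed for Fabp6, was expressed. Slc51a, a bile acid exporter subunit, had the highest FPKM of them in FA4 at 0.631. Slc10a2, the ileal bile acid uptake carrier, had 0 reads in FA4 against 10 in FA0, Fgf15 had 22 and 13, Nr0b2 had 1 and 2, and Slc51b had 0 and 2. Low levels of these genes accompanied the low level of Fabp6.

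**Figure D4:**
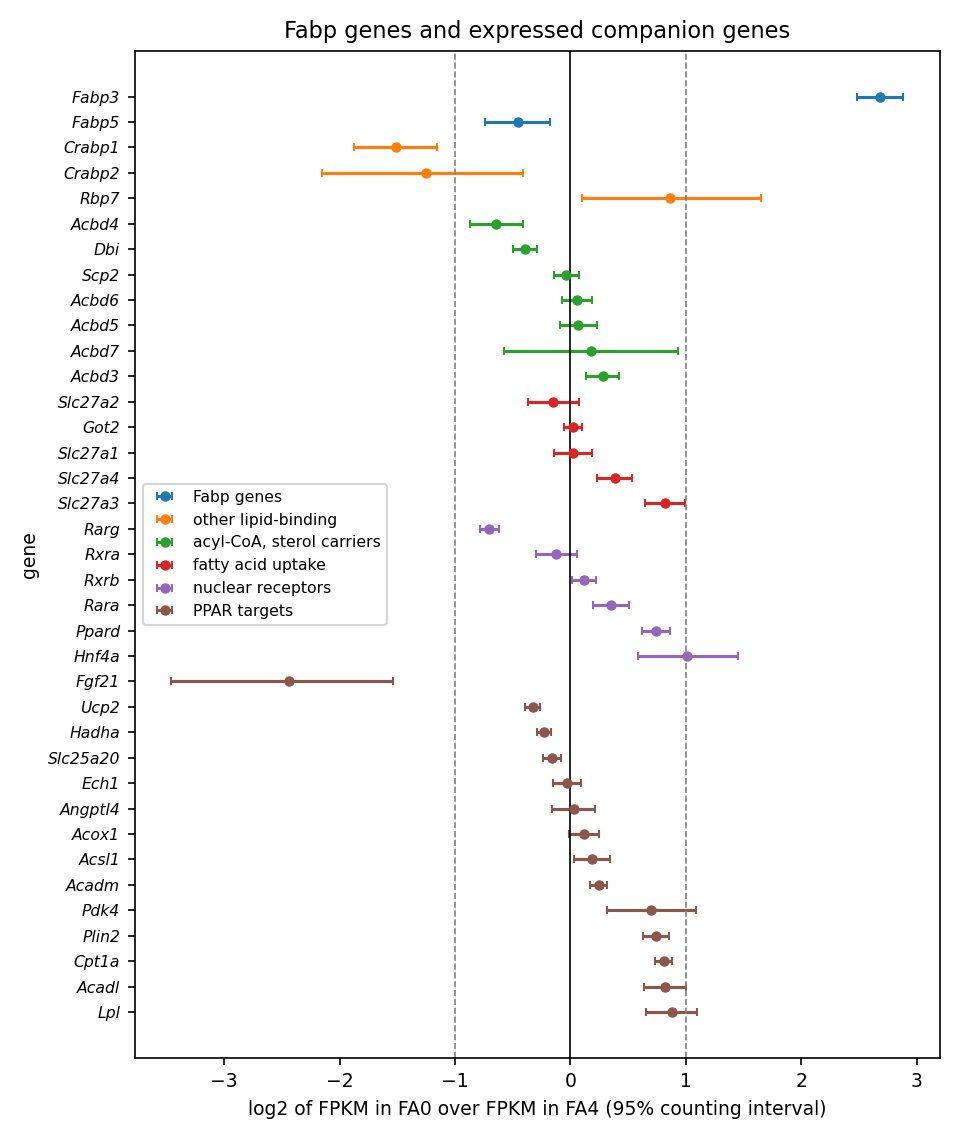
log2 ratio of FPKM, FA0 divided by FA4, with 95% counting limits, for Fabp3 and Fabp5 and for the expressed genes of 5 companion lists, by list. The dashed lines mark a ratio of 2-fold without a pseudocount, so Crabp2 (-1.25) and Hnf4a (1.01) also lie past them. Fabp3 at 2.68 lies far to the right of the other genes, and Crabp1 and Fgf21 lie furthest to the left.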

How the data were processed

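The deposited FPKM were made by the authors from TRIzol RNA and NEBNext Ultra libraries, with mm10 as the genome build. Versions in the submitters' processing notes are StringTie 1.3.3b, HISAT2 2.1.0 and DESeq 1.28.0, and Tophat and limma appear in the methods. Reads were recovered from FPKM with merged exon lengths of GENCODE M21 (same build), found for all but 39 genes, and a total fitted by least squares. They sum to 19534460 in FA4 and 18367795 in FA0, above the fitted totals.

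Named were all members and copies, genes of lists of up to 11 (of longer lists, the 6 expressed with the largest change), expressed genes within 200 kb and the 5 most alike. Gm6166, Gm10570 and the motifs were picked after values or sequences were seen. A gene of the lipid-binding list is not reported here and was left out of its counts. Members and lists were chosen with earlier results of these data known. Scripts (Python 3.11.15, pandas 2.3.3, numpy 2.4.6, scipy 1.17.1, biopython 1.88) were tested on simulated data.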

Additional observations from a re-analysis of the deposited data

How the results depend on the processing

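Fabp3 was the 1 member past the 2-fold limit, and the higher in FA0, under each alternative: smaller pseudocounts (0.1, 0.5), a minimum FPKM of 5 or none, a scaling to TPM or by the median ratio of 7744 genes (0.994), and, chosen after seeing the data, the coding transcript length. The median over the members rested on which of them were counted. It was -0.033 with no minimum (6 members), 2.60 with a minimum FPKM of 5 (Fabp3 alone) and -0.017 after rescaling to TPM (3 members), because fewer or more members passed. Of the 14345 expressed genes, 429 were higher and 190 lower at the 2-fold limit. A pseudocount of 0.1 gave 951 higher and 409 lower, one of 0.5 gave 659 and 279, no minimum gave 429 and 190 over 28839 genes, a minimum FPKM of 5 gave 195 and 80, and TPM gave 1529 and 599 with a median change of 0.15 over all genes. With a pseudocount of 0.1 the change of Fgf21 was -2.28 and Crabp2 joined Crabp1 past the limit, and with a minimum FPKM of 5 Fgf21 was not counted. No paired analysis was possible because each condition has 1 library, and none could be left out. What depth limits are Fabp1, Fabp4, Fabp6 and Fabp7, with at most 8 reads in a library.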
